A study of Mus musculus with 24 samples.

Results

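The 8 genes described here, Drd1, Drd2, Adora2a, Ppp1r1b, Tac1, Penk, Rgs9 and Six3, are genes that mark neurons of the striatum, read in RNA from dissected cerebral cortex. They were found by their symbols in the deposited gene table, a rule that uses no measured value, although the genes themselves were picked with earlier results of these data known. All 8 were found among 48709 genes, each once, and all 8 passed the filter of at least 1 count in every cortex library, which 20857 genes passed. The libraries came from cortex of mouse neonates, labelled as 3 to 5 days old and of strain C57BL/6J, whose dams breathed nano-sized particulate matter (nPM) or, in the controls, filtered air. Exposure lasted 5 h per day on 3 days per week from gestational day 2 until birth. The labels give the dose as 300 mg/m3 and the study's methods give it in micrograms, and the methods name the strain as C57BL/6NJ and the age as 5 days. Each exposure had 6 cortex libraries, 3 from each sex, with 4 sequenced in lane 2 and 2 in lane 3, and ribosomal RNA was removed before sequencing. The study's methods state that the 3 pups of each sex and exposure came from different litters, so that males and females of 1 exposure may share a litter. The dose reached the pups through the dam, and the tissue is a dissected region that holds every cell type of the block.

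Most striatal neurons are medium spiny neurons, which release GABA and receive dopamine from the midbrain. Neurons of the direct pathway carry the D1 dopamine receptor and the peptide substance P, and neurons of the indirect pathway carry the D2 dopamine receptor, the adenosine A2A receptor and enkephalin. The D1 receptor raises cyclic AMP and the D2 receptor lowers it, and the A2A receptor acts against the D2 receptor in the same cells. The striatum lies directly beneath the cortex, on the other side of the white matter, and neurons of the cortex express some of these genes at lower levels.

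Over the 12 libraries the 8 genes varied together, with a median Pearson r of 0.91 over their pairs, against 0.76 without controls 1 and 3. Within the nPM libraries the median was 0.43, and 4 pairs, all with Six3, were below 0. The SD of the log2 level was larger in controls than after nPM for 8 of 8 genes, and for 64.5% of all tested genes. Controls 1 and 3 were the ends of the control range for all 8 genes. Control 3, a male library, was the lowest of the 12 libraries for 8 of 8 genes. Control 1, a female library, was the highest for 7 of 8, with nPM 4 above it for Tac1. The summed level of the 8 genes was 76.5 counts per 1 M counts on genes (CPM, scaled by TMM factors) in control 3, 312 CPM in control 1, 124 to 198 CPM in the other 4 controls and 194 to 239 CPM after nPM. No gene passed edgeR's test of nPM against control, with an unadjusted edgeR p of 0.00863 to 0.466 and an adjusted p of 0.844 to 0.930. In bulk RNA, fewer cells of a type and less RNA per cell cannot be told apart.

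The cortex libraries held 22301409 to 33804371 counts on genes, and a count of 0 would allow a level of up to 0.0887 to 0.135 CPM (3 counts, counting error only). RNA integrity numbers (RIN) were 9.4 to 9.9, and 9.4 and 9.5 in controls 1 and 3. Sex genes fitted the sex label in 12 of 12 libraries, and no pair of libraries of a group agreed within sampling noise, with at least 7.02 as the chi-square per gene over 30 pairs. All 11 genes of a list for cortical excitatory neurons had at least 1 count in every cortex library. All 7 genes of a choroid plexus list and all 5 of a red cell list did too, so passing this filter does not check the tissue label. The sum of the cortical list was 1028 to 1223 CPM in controls and 963 to 1090 CPM after nPM.

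**Figure D1:**
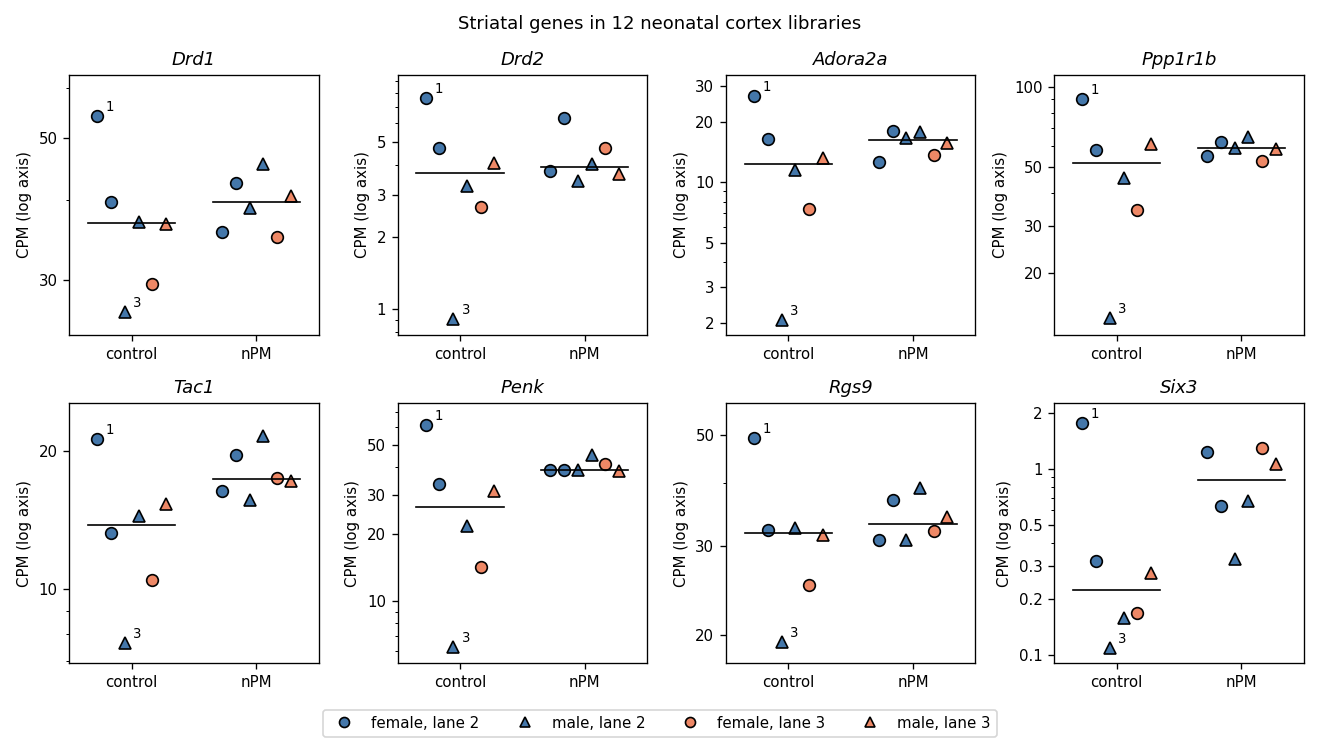
Level of each of the 8 striatal genes in each of 12 cortex libraries, in TMM-scaled CPM on log axes, with 6 control and 6 nPM libraries. Circles are females, triangles males, blue lane 2 and orange lane 3, the lines are medians, and the labels 1 and 3 mark control 1 and control 3. Control 3 is lowest in every panel, and control 1 is highest in every panel but that of Tac1.

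Upstream sequences are shown because the 8 genes moved together. RefSeq entries (GRCm38.p6) were given for 5 of 8 genes, namely Drd1, Drd2, Tac1, Rgs9 and Six3, and were searched over the 250 bases before the annotated start. There were 6 entries, 2 of them for Drd1, of which the first is printed. The sequences of Drd1 (chr13:54055659-54055908, minus strand), Drd2 (chr9:49340153-49340402, plus strand) and Rgs9 (chr11:109298182-109298431, minus strand) follow 5′ to 3′. They stand for a D1 receptor gene, a D2 receptor gene and a regulator of the signal of the D2 receptor. Capitals mark matches on either strand to the motifs searched. The GC box was GGGCGG, in capitals in the sequences of Drd2 and Rgs9. The TATA box was TATAAA, in capitals in that of Rgs9, where the match begins 195 bases before the annotated start. The cyclic AMP response element was searched as TGACGTCA and also as its short form, the first 5 of those letters, which therefore overlaps it.
Drd1: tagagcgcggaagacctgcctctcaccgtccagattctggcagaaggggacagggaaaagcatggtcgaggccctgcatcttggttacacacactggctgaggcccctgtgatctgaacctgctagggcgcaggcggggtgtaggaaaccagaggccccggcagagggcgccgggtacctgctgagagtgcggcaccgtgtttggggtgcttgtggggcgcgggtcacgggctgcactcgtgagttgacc
Drd2: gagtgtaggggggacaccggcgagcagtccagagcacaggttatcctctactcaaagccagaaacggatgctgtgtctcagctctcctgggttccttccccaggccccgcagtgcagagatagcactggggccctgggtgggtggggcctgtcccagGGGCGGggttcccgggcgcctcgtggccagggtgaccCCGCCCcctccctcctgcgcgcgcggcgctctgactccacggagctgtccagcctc
Rgs9: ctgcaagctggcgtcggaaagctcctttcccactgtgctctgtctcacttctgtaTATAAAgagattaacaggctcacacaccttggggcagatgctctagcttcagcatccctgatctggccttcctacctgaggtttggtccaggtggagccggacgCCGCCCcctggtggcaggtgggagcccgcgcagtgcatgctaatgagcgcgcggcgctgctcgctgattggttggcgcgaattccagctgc
The GC box was in 32.7% of all 32851 upstream windows of this length and in at least 1 window of 4 of the 5 genes, all but Six3. For Drd1 it was only in the window that is not printed (chr13:54054781-54055030). The percentage counts windows, whereas 4 of 5 counts genes. The TATA box was in 12.4% of all windows and in that of Rgs9. The short form of the response element was in 17.8% of all windows and in that of Tac1, and the full form was in 1.55% of all windows and in 0 of the 5 genes. A match in these letters is a description of the window and says nothing about binding.

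Among the receptors, Drd1 encodes the D1 dopamine receptor of the direct pathway (chr13:54051186-54055658, mm10, minus strand). The control libraries lay at 26.7 CPM at the lowest, 36.8 CPM at the median and 54.2 CPM at the highest, and the nPM libraries at 35.04, 39.7 and 45.5 CPM. The groups overlapped, with control 1 above and 2 controls below every nPM library. Drd1 averaged 37.3 ± 9.63 CPM in controls and 39.7 ± 4.04 CPM in nPM libraries (mean ± SD, n = 6 each). In log2 the fold change was 0.10 with an SE of 0.12 and an adjusted edgeR p of 0.920. The exact two-sided permutation test of the means gave p = 0.600, where the smallest p that 6 against 6 can give is 0.00216.

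Drd2 encodes the D2 dopamine receptor of the indirect pathway (chr9:49340662-49407214, plus strand). Its level was 0.911, 3.69 and 7.63 CPM in controls (lowest, median and highest) and in the nPM libraries 3.43, 3.90 and 6.28 CPM. The 3 controls below every nPM library were controls 3, 4 and 5, and control 1 lay above all of them. Drd2 rested on 25 to 208 counts in a library. Its fold change in log2 was 0.21 (SE 0.28, edgeR adjusted p = 0.930), and the exact permutation test gave p = 0.695.

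Adora2a encodes the adenosine A2A receptor (chr10:75316943-75334788, plus strand). Its controls lay at 26.8, 16.3, 2.08, 11.6, 7.39 and 13.2 CPM from control 1 to control 6. After nPM it lay at 12.6, 17.9, 16.7, 17.7, 13.7 and 15.7 CPM from nPM 1 to nPM 6. The nPM libraries were within 1.42-fold of each other, and the controls spread 12.9-fold. The means were 12.9 ± 8.43 CPM and 15.7 ± 2.15 CPM, with a fold change in log2 of 0.37 (SE 0.33, edgeR adjusted p = 0.899) and an exact permutation p of 0.442.

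Among the signalling proteins, Ppp1r1b encodes DARPP-32, the phosphatase inhibitor that relays dopamine signals in both pathways (chr11:98348404-98357796, plus strand). DARPP-32 transcripts in controls lay at 13.6, 51.8 and 90.0 CPM (lowest, median and highest) and in the nPM libraries at 52.9, 58.8 and 64.8 CPM. Controls 3, 4 and 5 were below all nPM libraries and control 1 was above them. The log2 fold change was 0.26 (SE 0.26, edgeR adjusted p = 0.906), with an exact permutation p of 0.468. A gene on the opposite strand that overlaps it, 1700003D09Rik, held 10 counts over the 12 libraries.

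Rgs9 encodes a regulator that speeds the shut-off of the inhibitory G proteins that serve the D2 receptor (chr11:109225355-109298129, minus strand). The controls of Rgs9 lay at 19.3, 31.9 and 49.3 CPM and the nPM libraries at 30.8, 33.2 and 39.2 CPM. The groups overlapped, with controls 3 and 5 below every nPM library. The log2 fold change was 0.12 (SE 0.15, edgeR adjusted p = 0.921), and the exact permutation test gave p = 0.604.

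Of the peptide genes, Tac1 encodes the precursor of substance P, a peptide of the direct pathway (chr6:7554879-7565834, plus strand). Its controls lay at 21.1, 13.2, 7.65, 14.4, 10.5 and 15.3 CPM from control 1 to control 6, and the nPM libraries at 16.4, 19.6, 15.6, 21.5, 17.5 and 17.2 CPM from nPM 1 to nPM 6. All nPM libraries lay above 5 of the 6 controls, and control 1 lay within their range. The means were 13.7 ± 4.60 CPM and 17.95 ± 2.18 CPM, which in log2 is a fold change of 0.40 with an SE of 0.16 (edgeR p = 0.0281 unadjusted and 0.862 adjusted) and an exact permutation p of 0.0671.

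Penk encodes proenkephalin, the enkephalin precursor of the indirect pathway (chr4:4133531-4138819, minus strand). Its controls lay at 61.2, 33.6, 6.23, 21.8, 14.2 and 31.0 CPM from control 1 to control 6. After nPM it lay at 38.7, 38.5, 38.5, 45.2, 41.2 and 38.2 CPM. All 6 nPM libraries were above 5 controls, within 1.18-fold of each other, and below control 1, where the controls spread 9.83-fold. The means were 28.01 ± 19.2 CPM and 40.1 ± 2.76 CPM, which in log2 is a fold change of 0.61 with an SE of 0.29 (edgeR p = 0.0483 unadjusted and 0.862 adjusted) and an exact permutation p of 0.154. The overlapping A830012C17Rik on the other strand held 40 counts in all.

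Six3 encodes a homeobox factor of the developing forebrain that takes part in making indirect pathway neurons (chr17:85613608-85629302, plus strand). It was close to the limit of detection, with 3 to 46 counts per library. Its controls lay at 1.76, 0.319, 0.109, 0.159, 0.170 and 0.277 CPM from control 1 to control 6, and the nPM libraries at 1.23, 0.634, 0.330, 0.675, 1.29 and 1.06 CPM. All nPM libraries were above 5 controls and below control 1. In log2 the fold change was 1.28 with an SE of 0.43 (edgeR p = 0.00863 unadjusted and 0.844 adjusted), with an exact permutation p of 0.212. The gene Six3os1 overlaps it on the opposite strand and held more counts, 494 over the 12 libraries against 229 for Six3, and it was also highest in control 1 and lowest in control 3. The sources used here do not state the strandedness of the libraries, so reads of this pair may not have been separated.

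Read together, 0 of 8 genes passed the unadjusted cutoff of p under 0.005 in edgeR's model with exposure, sex and RIN, where 0.614% of all tested genes did. In DESeq2, 1 of 8 passed that cutoff, Six3 with an adjusted p of 0.349 and 0.00147 before adjustment, against 0.858% of all genes. By adjusted p under 0.05 it was 0 of 8 in edgeR, against 0.0144% of all genes. At an unadjusted p under 0.05 there were 3 of 8 (Tac1, Penk and Six3) in edgeR, against 5.67% of all genes. At that level there were 3 of 8 in limma voom, against 1198 of 20857 genes, and 1 of 8 in DESeq2, against 1051. None of the 8 had an adjusted p under 0.05 in limma voom or DESeq2, against 3 and 22 of all genes. The log2 fold change was above 0 for 8 of 8 genes, with a median of 0.32, where 48.9% of all genes were above 0 and their median was 0.00. The 8 values are not independent, because they move with the same libraries. No gene had groups that did not overlap, which 0.197% of all genes had.

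The values moved with single libraries, among them controls 1 and 3 and nPM 2. Without control 1, Tac1 had a log2 fold change of 0.58 (unadjusted p = 0.00223, adjusted p = 0.779) and Six3 of 1.91 (unadjusted p = 0.000291, adjusted p = 0.609). The nPM libraries of Tac1, Penk and Six3 then all lay above the remaining 5 controls, as groups did not overlap for 0.59% of all genes. The exact permutation p was 0.00433 for each of the 3, the smallest that 6 against 5 can give, and 0.0433 for Adora2a. For these 3 genes control 1 was the only control not below every nPM library, so leaving it out fixed that p in advance. With all libraries the exact permutation p was 0.0671 for Tac1, 0.154 for Penk and 0.212 for Six3. Without control 3 the log2 fold changes of Drd1, Drd2, Ppp1r1b and Rgs9 were 0.02, 0.02, 0.05 and 0.01. Without nPM 2, Drd1, Drd2 and Rgs9 had log2 fold changes of 0.016, 0.0066 and 0.031, and the unadjusted p of Tac1 was 0.109 and that of Penk 0.123. Without nPM 3, 1 of 8 genes passed the unadjusted cutoff, Six3 at a log2 fold change of 1.49 (unadjusted p = 0.00228, adjusted p = 0.609), against 0.674% of all genes. With controls 1 and 3 both left out, Tac1, Penk and Six3 stood at 0.44, 0.60 and 1.79 with an unadjusted p of 0.00213, 0.00349 and 0.00101, and the adjusted p was at least 0.908 for all 8 genes. Each library was left out in turn by plan, and leaving out controls 1 and 3 together was chosen after the values were seen. When genes with a count in any library were kept, edgeR gave an adjusted p of 0.00147 for Tac1, 2.91e-09 for Penk and 0.0133 for Six3, with the prior degrees of freedom of its variance model raised from 7.37 to 365.

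**Figure D2:**
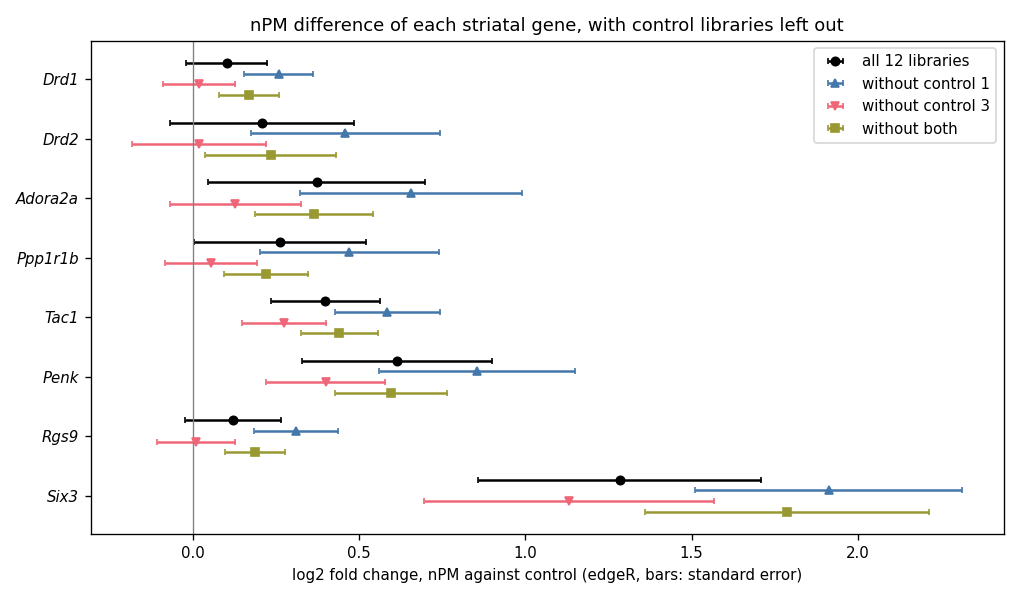
Log2 fold change of nPM against control for each of the 8 genes from edgeR, with bars of 1 standard error, over all 12 libraries and with control 1, control 3 or both left out. Every value lies above 0, from 0.01 for Rgs9 without control 3 to 1.91 for Six3 without control 1.

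Spread within the groups differed for the same 8 genes. The ratio of the highest to the lowest control was 2.03 for Drd1, 2.55 for Rgs9, 2.76 for Tac1, 6.64 for Ppp1r1b, 8.38 for Drd2, 9.83 for Penk, 12.9 for Adora2a and 16.1 for Six3. Among the nPM libraries it was 1.18 to 1.83 for 7 genes and 3.91 for Six3. Controls 1 and 3 were the highest and lowest control for each gene. The other controls lay at 2.68 to 4.73 CPM for Drd2 and 14.2 to 33.6 CPM for Penk. The nPM libraries lay at 3.43 to 6.28 and 38.2 to 45.2 CPM. Without controls 1 and 3 the controls thus no longer spread more for Drd2, and still did for Penk. With all libraries the SD of log2 CPM was larger in controls for 8 of 8 genes. It was larger in controls for 64.5% of all tested genes and for 69.9% of those with a mean of at least 50 counts. Over all 12 libraries the SD of log2 CPM was 0.27 for Drd1 and 0.33 for Rgs9, the steadiest of the 8, and 0.93 for Adora2a and 1.28 for Six3. The median over genes with at least 50 counts was 0.12.

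Compared per length, on the scale of CPM per 1000 exon bases over 12 libraries, Penk was highest with 20.8 ± 8.89, followed by Ppp1r1b with 18.6 ± 6.24 and Drd1 with 10.9 ± 2.03 (SD, n = 12). Adora2a (5.64 ± 2.39), Rgs9 (5.15 ± 1.14) and Tac1 (4.66 ± 1.20) followed, then Drd2 (2.65 ± 1.09) and Six3 (0.123 ± 0.0998). Some neighbours in this order did not hold it in every library. Penk was above Ppp1r1b in 8 of 12 libraries, 2 of the controls and 6 of the nPM libraries. Adora2a was above Rgs9 in 9 of 12 and Rgs9 above Tac1 in 10 of 12, so these 3 are not separated beyond their spread. Drd1 was above Adora2a, Tac1 above Drd2 and Drd2 above Six3 in 12 of 12.

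Across the 12 cortex libraries the 28 pairs of the 8 genes had a median Pearson r of 0.91 in log2 CPM (0.67 to 0.99) and a median Spearman rho of 0.74. These values are descriptions over libraries that include controls 1 and 3, and the part of depth or dissection in them was not tested. Adora2a and Ppp1r1b had the highest r, 0.99, and each was the closest to the other of 14466 genes with at least 50 counts on average. For Rgs9 the closest of these genes was Drd1, and for Drd2 it was Adora2a. Without controls 1 and 3 the median r was 0.76 (0.34 to 0.94), and no pair was negative. Within the controls it was 0.95 and within the nPM libraries 0.43, with 4 pairs below 0, all of them with Six3. After removal of exposure, sex and RIN the median was 0.92. The pairs crossed the pathways, since Drd1 of the direct pathway had an r of 0.89 with Adora2a of the indirect pathway, and Tac1 had 0.95 with Penk. Six3 followed least by Pearson r, with a median of 0.70 over its 7 pairs against 0.92 over the 21 others. It rested on only 3 to 46 counts per library. Its median Spearman rho was 0.63 against 0.77 over the others, with 0.92 for its pair with Penk and 0.83 for that with Tac1.

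**Figure D3:**
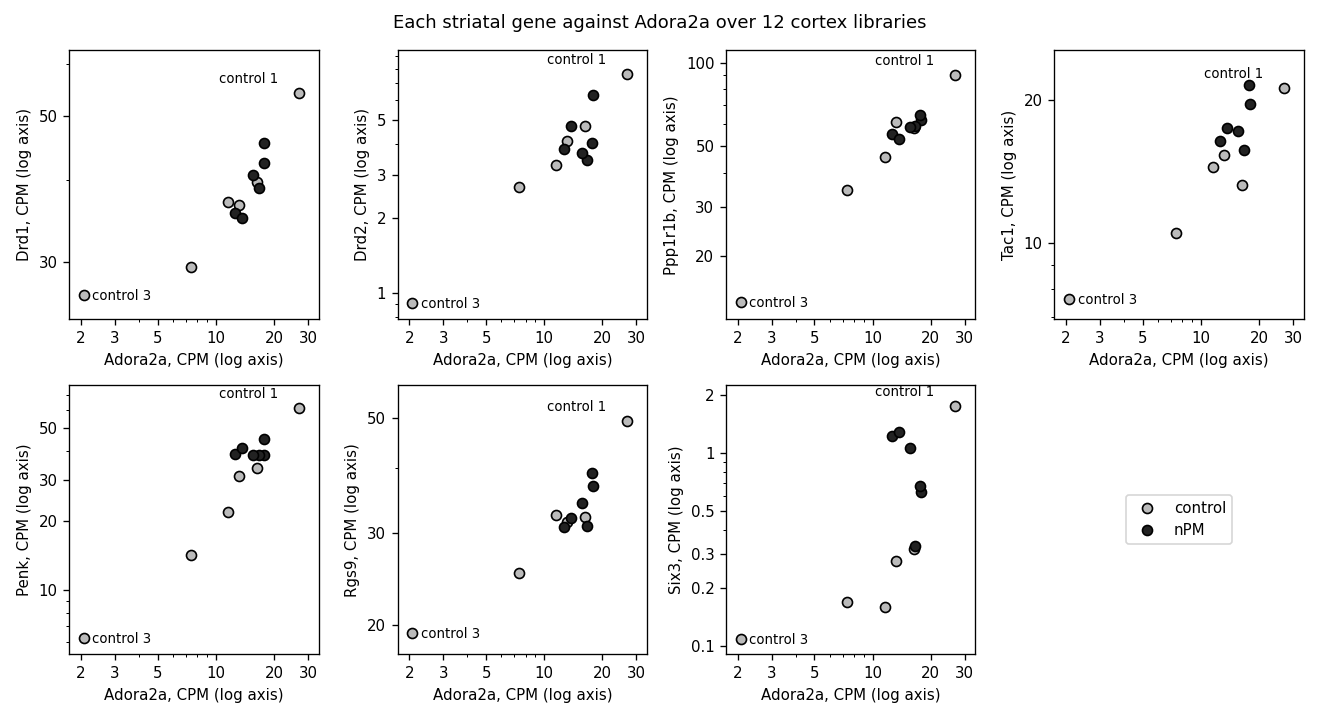
Level of 7 striatal genes against Adora2a in 12 cortex libraries, in TMM-scaled CPM on log axes, with controls in grey and nPM libraries in black. Control 3 and control 1 form the lower and upper ends in Adora2a, and the nPM points cluster between them, except for Six3, whose nPM points spread from 0.330 to 1.29 CPM within 12.6 to 17.9 CPM of Adora2a.

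Named by their likeness to the mean of the 8 standardized genes, the 5 closest of 14459 other genes were Pde1b, Pde7b, Gng7, Crabp1 and Ankrd63. Pde1b and Pde7b encode enzymes that break down cyclic nucleotides, Gng7 a G protein subunit and Crabp1 a protein that binds retinoic acid. Their r was 0.98, 0.97, 0.97, 0.97 and 0.97 over 12 libraries, and 0.90, 0.86, 0.91, 0.85 and 0.84 without controls 1 and 3. All 5 were lowest in control 3 and highest in control 1, as with Crabp1, which ran from 0.874 to 9.08 CPM. Over all 14459 genes the median r was -0.02, and 8.45% had an r above 0.5.

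Other genes of the striatum showed the same order of libraries in part. Of 20 further genes expressed across striatal neurons, 15 of the 19 with at least 50 counts on average had an r above 0.5, with a median of 0.83, and 0 of 20 passed the nPM cutoff. Their nPM log2 fold changes had a median of 0.09, from -0.12 for Arpp21 to 0.48 for Ido1. Of 7 other genes of the direct pathway, 5 had an r above 0.5, 0 passed the cutoff, and the log2 fold changes ran from -0.02 for Eya1 to 0.94 for Isl1 (median 0.16). Of 5 other genes of the indirect pathway, 4 were tested and Gpr52 was not found. The r was above 0.5 for 2 of those 4, 0 passed, and the values ran from -0.11 for Gpr6 to 0.30 for Sp9 (median -0.08).

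Partners of the 8 genes in the same signals were also measured. Of 7 signalling partners, among them Gnb5, which binds Rgs9, and Cdk5, a kinase of DARPP-32, 0 had an r above 0.5 and 0 passed the nPM cutoff, with log2 fold changes from -0.10 for Rgs7bp to 0.06 for Prkar2b (median -0.02). Of 6 genes for peptide receptors and a peptidase, 3 had an r above 0.5 and 0 passed, with values from -0.07 for Tacr1 to 0.24 for Tacr3 (median -0.01). Of 7 genes for dopamine synthesis and other dopamine receptors, 0 of the 3 with enough counts had an r above 0.5, 0 of 7 passed, and the values ran from -0.38 for Drd5 to 0.68 for Drd3 (median 0.16).

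Markers of neighbouring tissues moved with the 8 genes to different degrees. All 4 Dlx genes, which are transcription factors of GABA neurons, had an r above 0.5, and the sum of the list was lowest in control 3. Of 7 choroid plexus genes, whose tissue lines the ventricle beside the striatum, all 5 with enough counts had an r above 0.5. Their sum was 32.9 CPM in control 3, 318 to 400 CPM in the other controls and 238 to 512 CPM after nPM, so the choroid plexus genes were also lowest in control 3. Most of that sum was Ttr, at a mean of 288 CPM in controls and 382 CPM after nPM. The highest group mean of another gene of the list was 5.16 CPM, for Aqp1 after nPM. In control 1 the sum was 358 CPM, inside the range of the rest. Its r with the 8 genes was 0.75 and its rho 0.26, and without controls 1 and 3 the r was 0.03. Of 11 genes of cortical excitatory neurons, 0 had an r above 0.5 and the median was -0.47, and the sum was 1165 CPM in control 3 and 1028 CPM in control 1. The r of that sum with the 8 genes was -0.61 and rho -0.86. The part of dissection in these values was not tested.

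Beyond those lists, 3 of 10 interneuron genes had an r above 0.5, and so did 1 of 4 thalamus genes. Of 11 hypothalamus genes 3 were tested, and 1 passed the nPM cutoff, Trh (thyrotropin-releasing hormone), at a log2 fold change of -0.33 (unadjusted p = 0.00395, edgeR adjusted p = 0.779). It was the only gene of all 13 lists to do so. The medians of nPM log2 fold change were 0.16 for the Dlx genes (Dlx1 0.07 to Dlx5 0.29), 0.39 for choroid plexus (Kl 0.13 to Otx2 0.49), -0.09 for cortical excitatory neurons (at most 0.07, for Lhx2), 0.02 for interneurons (Vip -0.23 to Sp8 0.22), -0.33 for hypothalamus (Hcrt -0.41 to Pomc 0.03), 0.18 for thalamus (Prkcd 0.02 to Lhx9 0.30) and -0.03 for red cells (Hbb-bt -0.08 to Hba-a2 0.04). No gene of these lists was at 0 in every library.

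**Figure D4:**
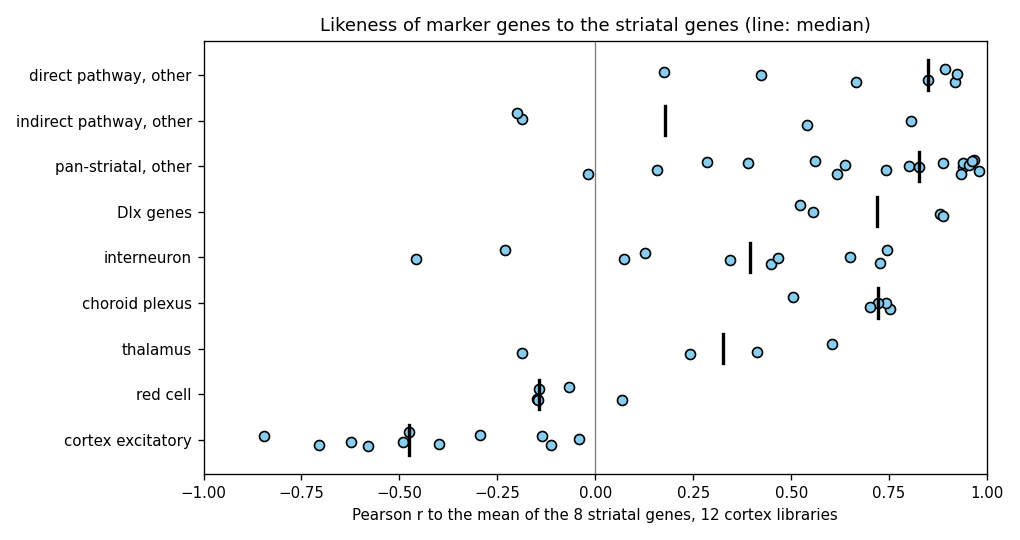
Pearson r of each marker gene (points) with the mean of the 8 standardized striatal genes over 12 cortex libraries, for genes with a mean of at least 50 counts, with the list median as a line. The medians are 0.85 for other direct pathway genes, 0.83 for other pan-striatal genes and 0.72 for Dlx and choroid plexus genes, and -0.47 for cortical excitatory genes. The vertical scatter within a row only separates the points.

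Sex was the second factor of the design. In the model with exposure, sex and RIN the log2 difference of males from females was below 0 for 8 of 8 genes, where 48.3% of all genes were above 0. The 8 values are not independent. Mean CPM was lower in males for all 8 genes in controls, where control 1 is female and control 3 male. Among nPM libraries it was lower in males for Drd2 and Six3 and higher for the other genes. The modelled difference was past the unadjusted cutoff for 1 of 8, Six3, against 0.518% of all genes. The value of Six3 was -1.58 with an SE of 0.45, an unadjusted edgeR p of 0.00294 and an adjusted p of 0.797. At an unadjusted p under 0.05 there were 3 of 8 (Drd2, Penk and Six3), against 6.09% of all genes. No gene of the 8 passed by adjusted p (0.797 to 0.835), against 0.0336% of all genes. Six3 no longer passed the cutoff without RIN as a term, at -1.13 (unadjusted p of 0.0356), nor without control 1, control 3, control 4, nPM 1 or nPM 4 (unadjusted p of 0.00622 to 0.172). Without control 1 its difference was -0.67 and the differences of Drd1, Tac1 and Rgs9 turned to 0.13, 0.12 and 0.11.

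In mean CPM, Drd1, Drd2, Adora2a, Ppp1r1b and Rgs9 were higher after nPM in males and lower after nPM in females. In mean log2 CPM their female differences were small, from -0.086 for Drd1 to 0.071 for Drd2. Their male differences in log2 ran from 0.33 for Drd1 to 1.29 for Adora2a. Male Adora2a had a mean of 8.94 CPM in controls and 16.7 CPM after nPM, and female Adora2a had 16.8 and 14.7 CPM (n = 3 each). Male Penk had 19.7 and 40.6 CPM, and female Penk 36.3 and 39.5 CPM. All 3 male nPM libraries lay above all 3 male controls for 5 of 8 genes (Drd1, Adora2a, Tac1, Penk and Six3), as for 4.29% of all genes, and 3 against 3 cannot give an exact p below 0.10. The same held in females for 0 of 8 genes, against 10.1% of all genes. The difference between the sexes was itself tested, and 0 of 8 genes passed the unadjusted cutoff for the nPM-by-sex term, against 1.35% of all genes, with 0 of 8 at an unadjusted p under 0.05, against 9.68%. The adjusted p was 0.706 to 0.947 in edgeR, against 0% of all genes called. In limma voom and DESeq2 0 of 8 passed the unadjusted cutoff, against 267 and 339 of 20857 genes. By adjusted p it was 0 of 8 in both tools, against 0 and 66 of all genes. The term was above 0 for 8 of 8 genes with all libraries, against 49.7% of all genes, and for 2 of 8 without controls 1 and 3. Control 1 is female and control 3 male.

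Lane was the only batch named in the labels, and it did not order the 8 genes as controls 1 and 3 did, both of which were in lane 2. In lane 3 against lane 2, 0 of 8 genes passed the unadjusted cutoff, against 0.264% of all genes. In edgeR 0 of 8 had an unadjusted p under 0.05, against 2.55% of all genes. It was also 0 of 8 in limma voom and DESeq2, against 544 and 373 of 20857 genes. The adjusted p was 1.00 for each, and the log2 differences ran from -0.21 for Adora2a to 0.25 for Six3, with 1 of 8 above 0 against 51.9% of all genes. Within lane 2 (n = 4 each) the log2 difference of the group means of log2 CPM, nPM against control, was 0.08 for Drd1, 0.40 for Drd2, 0.66 for Adora2a, 0.50 for Ppp1r1b, 0.12 for Rgs9, 0.45 for Tac1, 0.80 for Penk and 0.96 for Six3. Within lane 3 (n = 2 each) it was, in the same order, 0.20, 0.33, 0.57, 0.28, 0.24, 0.45, 0.92 and 2.35. The genes move with the same libraries, so the values within a lane are not 8 separate results. The nPM-by-lane term passed the unadjusted cutoff for 0 of 8 genes, against 1.38% of all genes. At an unadjusted p under 0.05 it was 0 of 8 in edgeR (9.81% of all genes), limma voom (2095 of 20857 genes) and DESeq2 (1622). The term was above 0 for 5 of 8 genes in edgeR, against 50.4% of all genes. Red cell genes did differ between lanes. All 5 of them (Hbb-bs, Hbb-bt, Hba-a1, Hba-a2 and Alas2) were higher in lane 3, by 1.01 to 1.51 in log2 with an adjusted edgeR p of 8.9e-05 to 0.00533, where 0.0288% of all genes had an adjusted p under 0.05. The red cell sum had an r of -0.13 with the 8 striatal genes.

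**Figure D5:**
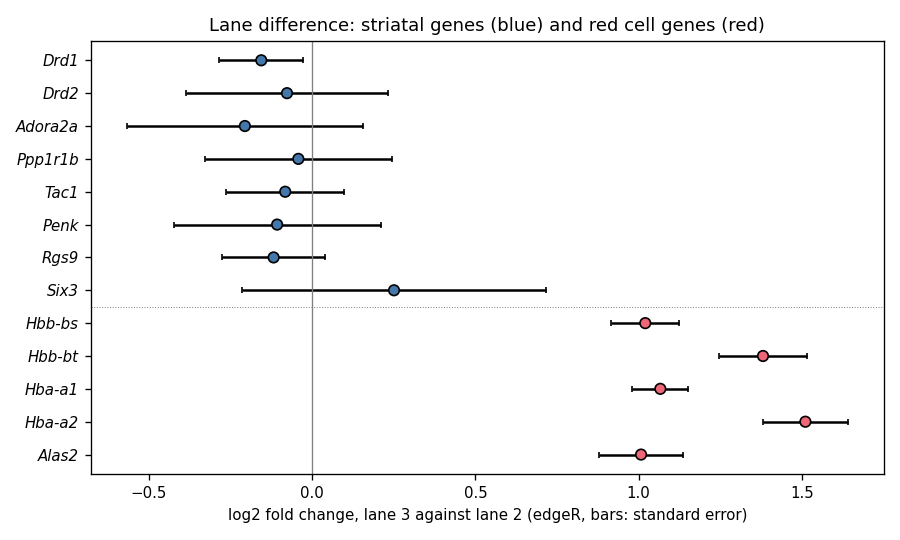
Log2 fold change of lane 3 against lane 2 over 12 cortex libraries from edgeR, with bars of 1 standard error, for the 8 striatal genes in blue and 5 red cell genes in red. The striatal genes lie between -0.21 and 0.25 and the red cell genes between 1.01 and 1.51.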

How the data were processed

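RNA-seq was made from 600 ng of RNA of 12 cortex and 12 blood libraries with RiboZero Gold. Per the labels and the study's methods the authors aligned reads with HISAT2 to mm10, assigned them with featureCounts 1.5.0-p3 to the genes of Gencode M11 and deposited raw counts. Reads were not realigned. The deposited gene table also holds mean expression values, which were not used.

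Genes with at least 1 count in every cortex library were tested with edgeR 4.0.16 (quasi-likelihood F test, two-sided, TMM, Benjamini-Hochberg over all tested genes) in R 4.3.3, with exposure, sex and RIN as terms. Terms for lane, nPM by sex or nPM by lane were added for those comparisons. The standard error is the log2 fold change divided by the square root of F. Calls used an unadjusted p under 0.005, the cutoff of the study, and an adjusted p under 0.05. Levels are CPM scaled by TMM factors, compared by exact permutation over libraries. Likeness used log2 CPM with a prior count of 0.5. Alternatives were limma 3.58.1 (voom), DESeq2 1.42.0, RLE factors, other count filters, no RIN, lane as a covariate, plain CPM and each library left out. Scripts were tested on simulated data.

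Named are the 8 genes, list genes past the unadjusted cutoff for nPM or lane, the lowest and highest of each list, and the 5 genes most like the 8. The lowest gene of the cortical excitatory list is not reported here. The genes and lists were chosen with earlier results of these data known. Samples were grouped by the labels, and blood libraries entered no test here. Depth, from 22301409 counts per library, limited Six3 most. The methods state separate litters for the 3 pups of a sex and exposure and nothing beyond that on how independent the preparations were.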

Additional observations from a re-analysis of the deposited data

Results flagged for a closer look

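Six3 in control 1, at 1.76 CPM, stood apart from the other 5 controls, of which the highest was at 0.319 CPM. Its gap divided by the range of the group was 0.872, past the limit for 6 samples. The 8 genes in 2 groups gave 16 such checks, and chance passes about 1 in 20.

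In blood, which entered no comparison here, the library blood nPM 5 held Drd2 at 0.488 CPM (9 counts). All other blood libraries, nPM and control, held 0. Blood nPM 5 held Adora2a at 0.650 CPM (12 counts), above the highest blood control at 0.519 CPM, and Tac1 at 0.271 CPM (5 counts), above the highest at 0.0945 CPM. Penk and Rgs9 had more counts in blood control 3 (303 and 14) than in blood nPM 5 (24 and 11). The study left a blood sample out of its analysis for its differing count distribution, and its methods do not name that sample. No blood library was left out here.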

How the results depend on the processing

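Under all of the other settings that were tried and with any 1 library left out, the nPM log2 fold change stayed above 0 for each of the 8 genes that could be fitted, and no adjusted p fell under 0.05 except with the filter of 1 count in any library. With that filter edgeR tested 32461 genes, and the prior degrees of freedom of its variance model went from 7.37 to 365, which brought the variance used for Penk from 12.4 to 1.06 although its own was 22.9. With that filter 3 of 8 genes had an adjusted p under 0.05 for nPM (Tac1, Penk and Six3), 5 of 8 for sex (Drd2, Adora2a, Ppp1r1b, Penk and Six3) and 3 of 8 for nPM by sex (Adora2a, Ppp1r1b and Penk). Over all genes it gave 526, 460, 787, 112 and 889 at the unadjusted cutoff for nPM, sex, nPM by sex, lane and nPM by lane, against 128, 108, 281, 55 and 288, and 185, 165, 379, 27 and 361 by adjusted p, against 3, 7, 0, 6 and 0. DESeq2 gave 22, 26, 66, 15 and 63 by adjusted p. For the other differences in these counts the cause was not tested. For nPM, 1 gene passed by adjusted p without RIN and 1 with lane as a covariate, and for sex 4 did with at least 10 counts in every library. That last filter left out Six3.

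Without controls 1 and 3, 80 genes passed the unadjusted cutoff for nPM and 0 the adjusted one, with 881 at an unadjusted p under 0.05, and the nPM-by-sex value was -0.39 for Drd2, -0.13 for Ppp1r1b, -0.31 for Tac1, -0.20 for Penk, -0.078 for Rgs9 and -0.46 for Six3. The nPM-by-lane value turned to 0.064 for Drd2 and 0.029 for Tac1 without RIN, and to -0.16 for Adora2a and -0.096 for Penk in limma voom. The median r of the 28 pairs was 0.76 without controls 1 and 3.

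Over the 12 fits that lacked a cortex library each, the nPM calls ran from 68 (without nPM 2) to 314 (without nPM 6) at the unadjusted cutoff and from 0 to 6 by adjusted p. For sex they ran from 42 (without control 1) to 428 (without nPM 6) at the unadjusted cutoff, for nPM by sex from 159 (without nPM 6) to 403 (without nPM 4) and 0 to 1 by adjusted p, for lane from 43 to 167 (without nPM 5) and 5 to 11, and for nPM by lane from 119 to 976 (without control 5) and 0 to 254. The log2 value crossed 0 for these genes. The sex difference ran from -0.27 to 0.13 for Drd1, -0.34 to 0.12 for Tac1 and -0.36 to 0.11 for Rgs9. The nPM-by-sex value ran from -0.26 to 0.77 for Drd2, -0.039 to 0.99 for Ppp1r1b, -0.21 to 0.41 for Tac1, -0.080 to 1.06 for Penk and -0.61 to 1.17 for Six3. The lane difference ran from -0.32 to 0.15 for Drd2, -0.42 to 0.030 for Adora2a, -0.26 to 0.18 for Ppp1r1b, -0.21 to 0.037 for Tac1, -0.33 to 0.13 for Penk and -0.46 to 0.90 for Six3. The nPM-by-lane value ran from -0.29 to 0.29 for Drd1, -0.61 to 0.75 for Drd2, -0.69 to 0.73 for Adora2a, -0.80 to 0.44 for Ppp1r1b, -0.35 to 0.32 for Tac1, -0.63 to 0.90 for Penk, -0.25 to 0.32 for Rgs9 and -0.65 to 2.06 for Six3. The exact permutation p of nPM against control ran from 0.173 to 0.957 for Drd2, 0.0433 to 0.848 for Adora2a, 0.00433 to 0.134 for Tac1, 0.00433 to 0.307 for Penk, 0.0866 to 0.961 for Rgs9 and 0.00433 to 0.368 for Six3, with the direction turned for Drd2 and Rgs9 and the lowest value without control 1 for each.

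No paired analysis was possible because the labels give no replicate numbers that pair libraries across exposures.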

Other observations

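Blood gives a view of the same genes outside the brain. All 12 blood libraries are described, including the unnamed sample that the study left out. Six3 had 0 counts in all 12 blood libraries, which allows a level of up to 0.137 CPM in the deepest of them (3 counts, counting error only). Drd1 had 0 counts in 10 of 12 and at most 3 counts, and Ppp1r1b had 0 in 8 of 12 and at most 3. Penk, which has known expression in immune cells, held 303 counts (14.3 CPM) in blood control 3, 24 counts (1.30 CPM) in blood nPM 5 and at most 2 counts in the other 10. Rgs9 held 14 counts in blood control 3 and 11 in blood nPM 5.

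Klhl13 was the gene closest to Tac1 over the 12 cortex libraries (r = 0.98), and Baiap3 the closest to Six3 (r = 0.92), and both were named after their values were seen. Among the 14466 genes of that comparison, 7 of the other members stood in the first 100 for Penk, 6 for Drd1, Drd2, Adora2a, Ppp1r1b, Tac1 and Rgs9, and 2 for Six3.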
